A study of Danio rerio with 11 samples.

Results

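The comparison described here is between brains of zebrafish that are homozygous for a csf1ra mutation and also carry 1 mutated copy of csf1rb (csf1ra-/-;b+/-, 3 libraries) and brains with the csf1ra mutation alone (csf1ra-/-, 3 libraries). These 6 libraries were taken by their genotype labels from the 11 libraries of the series, whose other 5 are 2 control and 3 csf1ra-/-;b-/- libraries. All animals were of a TLF x AB background with the mpeg1-GFP transgene, in which the mpeg1 promoter labels macrophages and microglia, and were about 8 months old. Whole brains were sequenced, both groups are homozygous for the csf1ra mutation, and the labels name no csf1rb mutation in the csf1ra-/- group. The labels state neither the number of fish behind a library, nor that libraries of a group come from separate fish, nor what the mutations do to the RNA. The p-values therefore measure the spread between these libraries, which may be technical. The 6 libraries held 12799766 to 15137412 reads in listed genes, so that 1 CPM (read per 1e+06 reads, scaled by the authors) stood for 12.3 to 15.4 reads. The table lists 16536 genes, each above 1 CPM in at least 3 libraries of the series. The brain origin was plain in the 31 listed genes of neurons and synapses, whose summed level was 16724 to 17548 CPM in csf1ra-/- and 16871 to 17547 CPM in csf1ra-/-;b+/-.

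Zebrafish have a pair of genes, csf1ra and csf1rb, for the receptor tyrosine kinase that binds colony-stimulating factor 1 and interleukin 34. Signalling through this receptor supports the formation, survival and spread of macrophages, including microglia, the macrophages of the brain parenchyma. csf1ra also acts in pigment cells of the skin, and csf1rb has been tied to the supply of blood-borne precursors. In whole-brain RNA, fewer cells of a type and less RNA per cell cannot be told apart.

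Few genes differed at the threshold used. Of the 16536 genes, 31 had an adjusted p under 0.05 (0.187%; limma on log2(CPM + 1) in a fit of all 4 genotypes, Benjamini-Hochberg adjustment). In csf1ra-/-;b+/- brains 12 of them were higher (0.0726%) and 19 lower (0.115%), and 28 of the 31 differed by at least 1 on the log2 scale. The median difference over all genes was -0.01 on that scale. At an unadjusted p under 0.05 there were 1039 genes (6.28%), 615 lower (3.72%) and 424 higher (2.56%). Libraries that share a number in the labels deviated together, and a fit of the 6 libraries with that number as a block called 206 genes (1.25%), 147 lower (0.889%) and 59 higher (0.357%), among them all 31. With all 4 genotypes in the blocked fit, 41 genes were called (0.248%), 24 lower (0.145%) and 17 higher (0.103%). That fit used the numbers of the library descriptions, in which the second control is number 3, while its title says 2. With the numbers of the titles it called 35 genes, 20 lower and 15 higher. The size of the set of 206 rested on the first pair: without it 10 genes were called, 4 of them among the 31, without the second pair 452 and without the third 234. Of the 31 calls, 9 were made in each of the 6 fits that left out 1 library (alox5b.3, gstm.2, msh4, mhc2dab, gh1 and 4 genes with clone-derived names), 9 in 1 to 3 of those fits, and 13 in 0, csf1rb among them. A gene below is said to have risen or fallen where it passed the fit of 4 genotypes without a block or the blocked fit of the 6 libraries, and "with the block" means the latter. Most genes called only in that blocked fit were not called in the blocked fit of 4 genotypes, whose adjusted p is given as the one with all genotypes blocked.

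**Figure D1:**
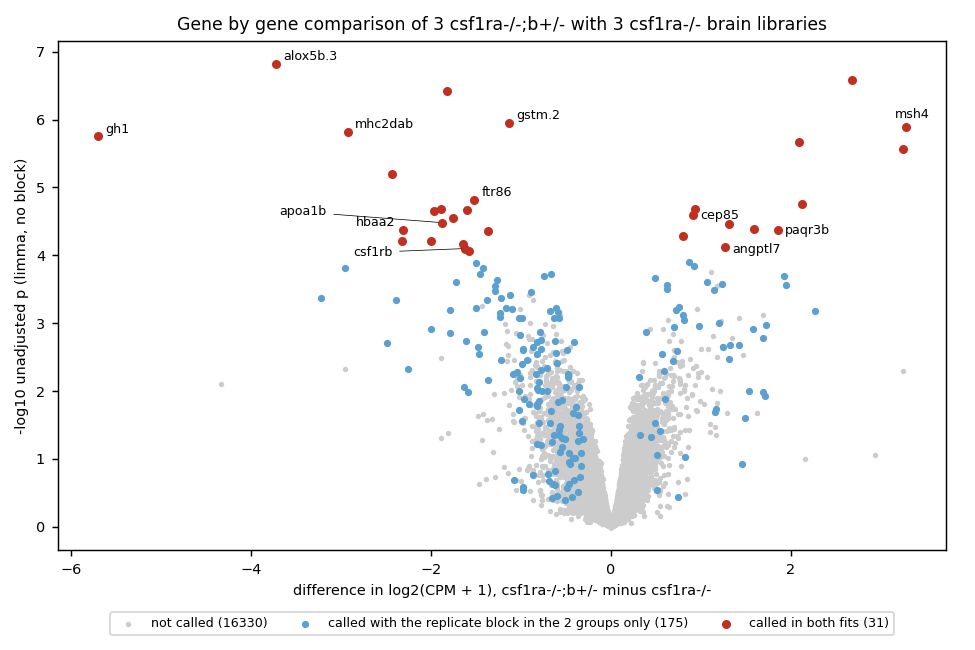
Each point is 1 of 16536 genes, with the difference in log2(CPM + 1) (csf1ra-/-;b+/- minus csf1ra-/-, 3 libraries each) on the x axis and -log10 of the unadjusted limma p on the y axis. The 31 called genes (red) lie at both edges, with gh1, alox5b.3 and mhc2dab farthest to the left and msh4 far to the right, and the 175 genes called only with the replicate block (blue) lie mostly on the left.

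Of the 4 listed receptors and ligands, csf1rb alone was called (0.187% of all genes). Its level was 14.4, 8.42 and 10.7 CPM in the 3 csf1ra-/- libraries and 3.83, 1.60 and 3.63 CPM in the 3 csf1ra-/-;b+/- libraries. The groups did not overlap, and the reads summed over a group were 440 against 134, a 3.65-fold lower level (95% counting interval 3.00 to 4.46). csf1rb (ENSDARG00000053624) fell by 1.62 on the log2 scale (SE 0.272, adjusted p = 0.0439; with the replicate block adjusted p = 0.00552). The call was lost in each of the 6 fits that left out 1 library, with differences from -1.34 to -1.79 and adjusted p from 0.0874 without csf1ra-/- replicate 2 to 0.192 without csf1ra-/- replicate 1. The csf1ra-/-;b+/- values were near those of the 3 csf1ra-/-;b-/- libraries, at 1.97, 2.52 and 2.08 CPM.

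csf1ra, mutated in both groups, was still read. csf1ra stood at 1.62, 0.952 and 5.10 CPM in csf1ra-/- against 0.905, 0.976 and 0.584 CPM in csf1ra-/-;b+/- libraries, with 1 csf1ra-/- library well above the rest and the groups overlapping. The difference for csf1ra, -0.80 on the log2 scale (SE 0.364), missed the threshold (adjusted p = 0.794). The ligand genes il34 (log2 difference -0.29, adjusted p = 0.99) and csf1a (-0.20, adjusted p = 0.999) did not pass either. csf1b is not among the listed genes.

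**Figure D2:**
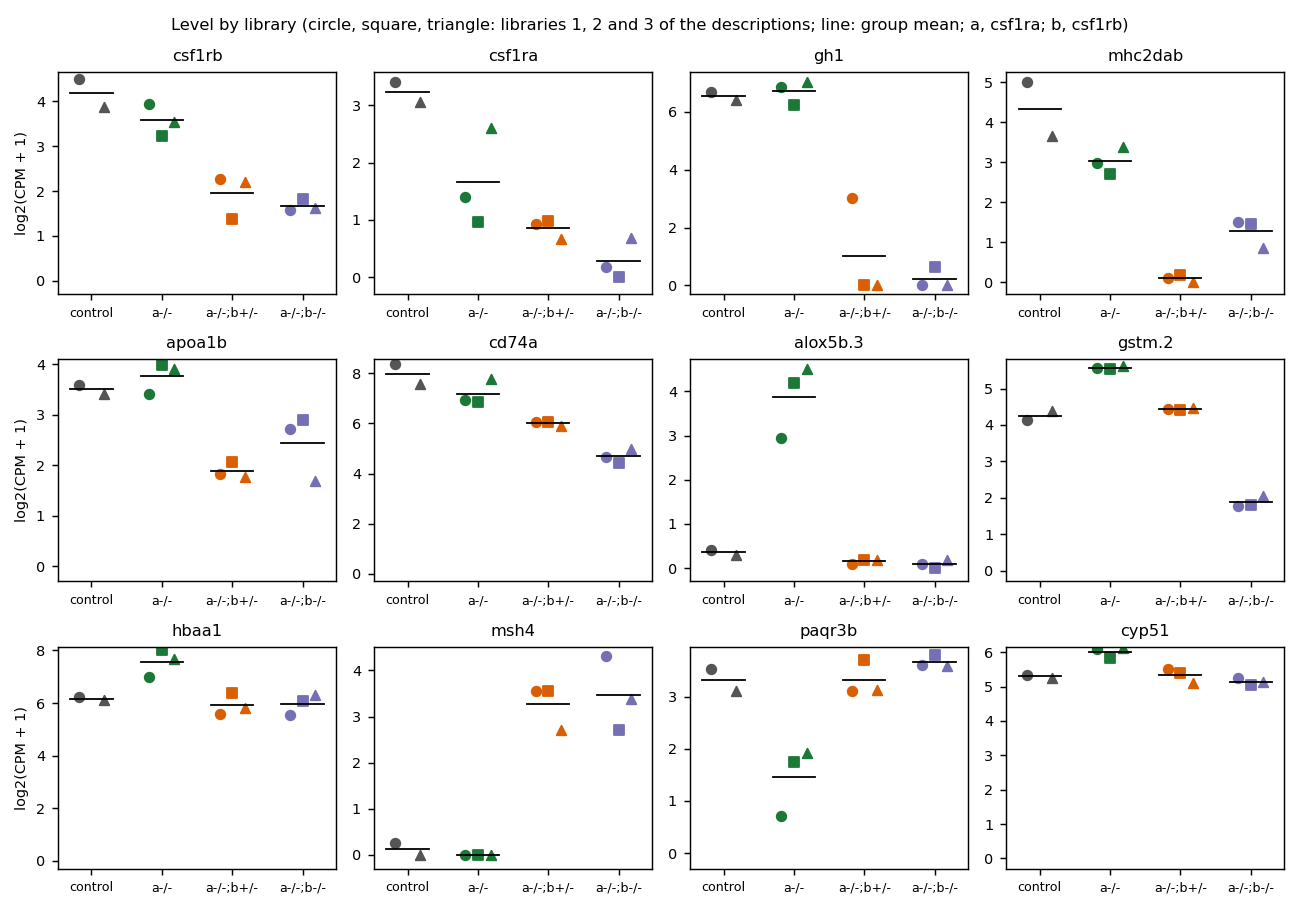
Level of 12 genes in all 11 libraries as log2(CPM + 1) (y axis) by genotype (x axis; a, csf1ra; b, csf1rb), with points for libraries, shapes for their number and a line for the group mean. csf1rb, gh1, mhc2dab and apoa1b are low in both groups that carry a csf1rb mutation, alox5b.3 is high in csf1ra-/- alone, msh4 is near 0 in control and csf1ra-/-, and gstm.2 steps down from csf1ra-/- to csf1ra-/-;b+/- to csf1ra-/-;b-/-.

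Genes of microglia and macrophages lay lower in csf1ra-/-;b+/- brains as a list, but none of its 22 listed members passed without the block. Their median log2 difference was -0.54, and 20 of 22 were below 0 (8573 of 16536 over all genes). In 12 members the csf1ra-/-;b+/- libraries all lay below the csf1ra-/- libraries, compared with 6.46% of all genes, and in 0 all above (5.27% of all genes). In 12 members the unadjusted p was under 0.05 with a negative difference, compared with 3.72% of all genes. As the gene lists were chosen with earlier results of these data known, such comparisons here and below are a description. Some lists of other tissues also leaned lower, such as skin and skeletal muscle (16 of 18 below 0, median -0.47) and retina and pineal (22 of 23, -0.44). Others did not, such as neurons and synapses (11 of 31, 0.02). Summed over the list of microglia and macrophages the levels did not overlap, at 598 to 642 CPM in csf1ra-/- and 438 to 484 CPM in csf1ra-/-;b+/- libraries. Control libraries summed to 793 and 991 CPM, and csf1ra-/-;b-/- libraries to 443 to 561 CPM. These sums weigh abundant members most, such as apoeb (means 198 CPM in csf1ra-/-, 141 in csf1ra-/-;b+/- and 194 in csf1ra-/-;b-/-). The list median relative to the csf1ra-/- mean was -0.67, -0.50 and -0.64 in csf1ra-/-;b+/- libraries. In csf1ra-/-;b-/- libraries it was -1.07, -1.05 and -0.65.

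With the block, 7 of the 22 fell (0.889% of all genes): tgm2l, lgals9l1, lgals3bpb, fcer1gl, slco2b1, apoc1 and apoeb. With all genotypes blocked 0 of the 22 were called (adjusted p of these 7 from 0.0791 for tgm2l to 0.338 for apoc1). The transglutaminase gene tgm2l was at 4.71, 6.59 and 5.61 CPM in csf1ra-/- and 1.25, 1.74 and 1.23 CPM in csf1ra-/-;b+/- libraries. Every csf1ra-/-;b+/- library was thus below every csf1ra-/- library, with a log2 difference of -1.46 (SE 0.27, adjusted p = 0.0795, and with the block 0.0111). lgals9l1, which encodes a galectin, went from 7.79, 5.35 and 9.17 CPM to 2.02, 1.67 and 1.49 CPM (log2 difference -1.61, SE 0.399, adjusted p = 0.253, and with the block 0.0124). lgals3bpb, a galectin-binding protein gene, went from 17.0, 14.1 and 33.9 CPM to 5.85, 7.25 and 5.12 CPM (-1.59, SE 0.52, adjusted p = 0.493, and with the block 0.0371). Among the csf1ra-/- libraries, replicate 3 was far above the others.

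The apolipoprotein gene apoeb, abundant in zebrafish microglia but also made by other brain cells, was at 192, 196 and 205 CPM in csf1ra-/- and 125, 152 and 146 CPM in csf1ra-/-;b+/- libraries (log2 difference -0.49, SE 0.127, adjusted p = 0.289, and with the block 0.016). The csf1ra-/-;b-/- libraries held 203, 154 and 224 CPM, above the csf1ra-/-;b+/- values. apoc1, another apolipoprotein gene, had means of 123 ± 10.9 and 81.9 ± 9.21 CPM (SD, n = 3 each; adjusted p with the block 0.0105). fcer1gl, the signalling subunit of Fc receptors, had means of 7.78 ± 0.783 and 3.49 ± 1.07 CPM (with the block 0.0478), and the organic anion transporter gene slco2b1 6.59 ± 1.08 and 2.68 ± 0.523 CPM (with the block 0.0408).

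Other microglial markers did not pass. mpeg1.1, the macrophage perforin gene whose promoter drives the transgene, was at 9.33, 5.49 and 12.2 CPM in csf1ra-/- and 9.95, 5.44 and 4.93 CPM in csf1ra-/-;b+/- libraries. The groups overlapped and the difference of -0.36 (SE 0.394) did not pass (adjusted p = 0.999). Of the 9 listed myeloid transcription factor genes, 8 lay below 0 with a median of -0.48. In this list 0 passed either fit (0.187% of all genes without the block and 1.25% with it). spi1b, which encodes the myeloid factor Pu.1, was at 6.33, 4.47 and 4.73 against 4.45, 1.88 and 2.33 CPM (log2 difference -0.71, adjusted p = 0.80), and irf8, needed for microglia in zebrafish, had means of 6.31 and 3.96 CPM (-0.60, adjusted p = 0.84). hexb, a lysosomal gene used as a microglial marker in mice, had means of 56.4 ± 3.60 and 51.9 ± 5.24 CPM (-0.12, adjusted p = 0.999).

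**Figure D3:**
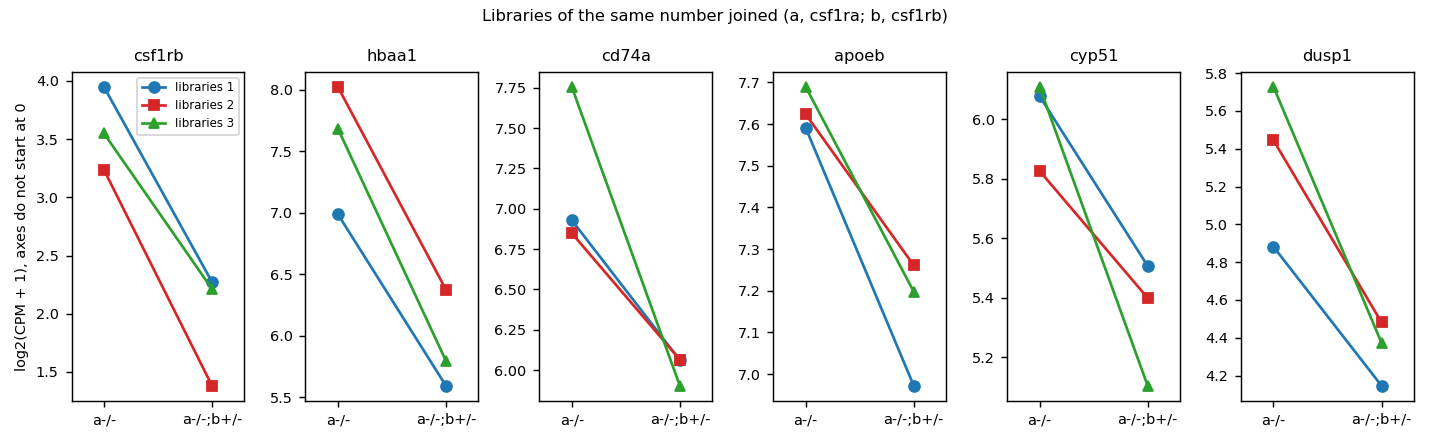
Levels of 6 genes as log2(CPM + 1) (y axis, not starting at 0) in csf1ra-/- and csf1ra-/-;b+/- libraries (x axis), with lines joining libraries of the same number. In each of the 6 panels all 3 lines go down, and for hbaa1 and dusp1 the libraries numbered 1 are lowest in both groups. All 6 genes fell with the block, so the downward lines follow largely from the choice of genes.

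Among antigen presentation genes 1 was called without the block, as lower (0.115% of all genes). mhc2dab, an MHC class II gene, was at 6.81, 5.57 and 9.46 CPM in csf1ra-/- libraries and at 0.0696, 0.139 and 0 CPM in csf1ra-/-;b+/- libraries. That is 290 reads against 3, a 107.4-fold lower level with a counting interval of 36.4 to 524. mhc2dab fell by 2.93 on the log2(CPM + 1) scale (SE 0.324, adjusted p = 0.00415) and remained called in each of the 6 fits without 1 library. The csf1ra-/-;b-/- libraries, at 1.84, 1.73 and 0.803 CPM, lay between those groups. Reads of 50 nucleotides can be shared among near-identical MHC, globin, glutathione transferase and finTRIM genes, so the split between such copies is uncertain.

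All 16 listed antigen presentation genes lay below 0, with a median of -0.49, compared with 51.8% of all genes below 0. In 9 of them the groups did not overlap, compared with 6.46% of all genes in that direction. Their summed level was 641 to 1003 CPM in csf1ra-/- and 499 to 588 CPM in csf1ra-/-;b+/- libraries. cd74a and cd74b, which encode the invariant chain of MHC class II, fell with the block, but with all genotypes blocked neither was called (adjusted p = 0.0984 and 0.221). cd74a was at 121, 114 and 215 CPM in csf1ra-/- and 65.8, 66.0 and 58.8 CPM in csf1ra-/-;b+/- libraries (log2 difference -1.17, SE 0.249, adjusted p = 0.149, and with the block 0.0275). It was lower again in csf1ra-/-;b-/- libraries, at 24.4, 20.6 and 30.7 CPM. cd74b was at 50.8, 45.8 and 83.9 against 30.8, 26.3 and 28.1 CPM (-1.01, SE 0.303, adjusted p = 0.431, and with the block 0.0247).

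MHC class I gave a split by library. mhc1uba was at 106.4, 0 and 114.4 CPM in csf1ra-/- libraries and at 0.418, 0 and 0.0648 CPM in csf1ra-/-;b+/- libraries. The second csf1ra-/- library thus held no read while the other two lay above the control libraries (56.8 and 61.6 CPM), and the difference of -4.33 (SE 1.35) did not pass (adjusted p = 0.464, and with the block 0.115). Without that second csf1ra-/- library the limma adjusted p of mhc1uba was 9.15e-08, and without any other 1 of the 6 libraries it was 0.671 to 0.986. The csf1ra-/-;b-/- libraries held 0.0635, 0.0719 and 0.268 CPM of mhc1uba. b2m, the shared light chain of class I, was at 125, 106 and 163 against 89.8, 86.5 and 81.2 CPM (-0.59, SE 0.237, adjusted p = 0.689, and with the block 0.0709).

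The chemokine, interferon response and phagocytic receptor lists had no call in the fit of 4 genotypes without a block. Of the 17 listed chemokine and receptor genes 13 were below 0 (median -0.26), and ccl34b.1, a chemokine gene of zebrafish microglia, fell with the block, from 5.84, 8.50 and 10.2 CPM to 2.37, 3.70 and 2.59 CPM (-1.23, SE 0.25, adjusted p = 0.12, and with the block 0.0238). Of the 23 listed interferon response genes 21 were below 0 (median -0.48), and the groups did not overlap in 5 (6.46% of all genes), all lower. Of the 23, 0 passed either fit (0.187% of all genes without the block and 1.25% with it). The medians of this list by library overlapped, at -0.29, -0.24 and 0.573 in csf1ra-/- and -0.42, -0.20 and -0.755 in csf1ra-/-;b+/-. Replicate 3 of csf1ra-/- was far above the rest. In the mannose receptor gene mrc1b, on the list of 19 phagocytic and scavenger receptors (median -0.13), the level went from 4.46, 3.81 and 11 CPM to 2.37, 0.697 and 2.2 CPM (-1.37, adjusted p = 0.448, and with the block 0.0435). With all genotypes blocked neither ccl34b.1 (adjusted p = 0.0897) nor mrc1b (0.173) was called. irge4, named outside the lists, encodes an immunity-related GTPase and went from 5.52, 4.39 and 6.92 CPM to 1.04, 0.976 and 0.908 CPM (-1.72, adjusted p = 0.0911, with the block 0.00991, and with all genotypes blocked 0.0604). The csf1ra-/-;b-/- libraries held 5.46, 6.54 and 1.94 CPM of irge4, above the csf1ra-/-;b+/- values.

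Complement split by member, with 5 of the 9 listed genes below 0 (median -0.22). In 3 of the 9 the csf1ra-/-;b+/- libraries all lay below the csf1ra-/- libraries (6.46% of all genes), and in 3 all above (5.27% of all genes). The 3 subunit genes of C1q, made by microglia in the brain, were lower without passing: c1qa had means of 1.93 ± 0.843 and 0.407 ± 0.0539 CPM, c1qb 1.92 ± 0.403 and 0.707 ± 0.167 CPM, and c1qc 3.09 ± 1.12 and 0.749 ± 0.0754 CPM (adjusted p from 0.506 to 0.677, with the block from 0.0562 to 0.153). c3b.2, a gene for the central component C3, moved the other way. It was at 0.892, 1.61 and 0.218 CPM in csf1ra-/- and at 6.89, 4.88 and 6.10 CPM in csf1ra-/-;b+/- libraries (1.92, SE 0.359, adjusted p = 0.0825), and rose with the block (adjusted p = 0.0197) but not with all genotypes blocked (0.083). The control libraries held 10.8 and 6.25 CPM of c3b.2, so the csf1ra-/- libraries were the low ones.

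gh1, the growth hormone gene of the pituitary, had the largest fall among the 31 called genes on the log2(CPM + 1) scale. By summed reads it was 45.5-fold lower, less than mhc2dab above or alox5b.3, which was 136.7-fold lower. gh1 was at 115, 74.4 and 130 CPM in csf1ra-/- libraries and at 7.17, 0 and 0 CPM in csf1ra-/-;b+/- libraries, where 103 reads came from the first library and 0 from the others. gh1 fell by 5.70 on the log2(CPM + 1) scale (SE 0.64, adjusted p = 0.00415), and by 6.71 without that first library (adjusted p = 1.83e-06). The call was not made by edgeR (adjusted p = 0.0509) or DESeq2 (adjusted p = 0.653) on the reads. The authors' deposited false discovery rate for gh1 was 0.0442, also near the threshold. Control libraries held 103 and 85.2 CPM, and csf1ra-/-;b-/- libraries 0, 0.575 and 0 CPM. The other 4 listed genes of pituitary hormones or their processing did not pass, and their groups overlapped. Among them the corticotropin precursor gene pomca had means of 5.34 ± 1.95 and 6.38 ± 1.35 CPM (0.25, adjusted p = 0.999), and the prolactin gene prl2 2.28 ± 0.592 and 2.07 ± 0.499 CPM (-0.09, adjusted p = 0.999). How much pituitary was kept with each dissected brain is not stated, and its part in the gh1 difference was not tested.

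Of the red blood cell genes, 2 were called without the block, both lower (0.115% of all genes). hbaa1, an adult alpha globin gene, was at 126, 259 and 205 CPM in csf1ra-/- and 47.3, 82.0 and 54.5 CPM in csf1ra-/-;b+/- libraries. hbaa1 fell by 1.65 (SE 0.271, adjusted p = 0.0406, and with the block 0.000493), and hbaa2 fell by 2.31 (SE 0.361, adjusted p = 0.0298), from 6.57, 19.3 and 12.4 CPM to 1.18, 1.39 and 2.2 CPM. For both globins the control libraries (74.1 and 67.6 CPM of hbaa1, 2.96 and 5.01 CPM of hbaa2) lay below the csf1ra-/- libraries, so that the csf1ra-/- group stood highest.

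Of the 16 listed erythrocyte genes 13 were below 0 (median -0.59), and in 10 the groups did not overlap, all lower (6.46% of all genes). With the block 6 fell (0.889% of all genes), and with all genotypes blocked 3 did (0.145% of all genes), hbaa1, hbaa2 and hbba2. The beta globin gene hbba2 was at 9.65, 35.3 and 19.5 against 3.06, 5.51 and 3.63 CPM (-2.01, adjusted p = 0.204, and with the block 0.00564). The anion exchanger gene slc4a1a had means of 11 ± 2.52 and 4.43 ± 0.696 CPM (-1.13, adjusted p = 0.113, and with the block 0.0165), and alas2, which starts haem synthesis in red cells, 25 ± 6.74 and 13.8 ± 0.902 CPM (-0.78, adjusted p = 0.252, and with the block 0.0392). The summed level of the list was 575 to 906 CPM in csf1ra-/-, 400 to 569 CPM in csf1ra-/-;b+/-, 331 and 445 CPM in control and 460 to 620 CPM in csf1ra-/-;b-/- libraries. The blood left in each dissected brain is not stated, and its part in these differences was not tested.

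Sterol synthesis genes were lower in csf1ra-/-;b+/- brains by smaller amounts. Of the 30 listed members 26 were below 0 (median -0.29), and the unadjusted p was under 0.05 in 13, all lower, compared with 3.72% of all genes. Their summed level was 936 to 1144 CPM in csf1ra-/- and 820 to 898 CPM in csf1ra-/-;b+/- libraries. Control libraries summed to 725 and 757 CPM and csf1ra-/-;b-/- libraries to 716 to 746 CPM, below both groups. None passed without the block, and 3 fell with it (0.889% of all genes): cyp51, msmo1 and lss, which encode enzymes acting at or after the closure of the sterol rings. cyp51 was at 66.5, 55.7 and 68.0 CPM in csf1ra-/- and 44.5, 41.2 and 33.4 CPM in csf1ra-/-;b+/- libraries (-0.67, SE 0.123, adjusted p = 0.0795, and with the block 0.0338). msmo1 was at 65.5, 51.0 and 50.2 against 34.1, 37.9 and 26.5 CPM (-0.75, SE 0.14, adjusted p = 0.0825, and with the block 0.0223). In both genes every csf1ra-/-;b+/- value was below every csf1ra-/- value. With all genotypes blocked cyp51 was called (adjusted p = 0.0387), and msmo1 (0.0578) and lss (0.0819) were not. The upstream enzyme genes hmgcs1 (94.6, 89.1 and 114 against 71.6, 73.5 and 46.5 CPM) and fdps (means 49.9 ± 6.32 and 39.7 ± 2.04 CPM) did not pass (adjusted p = 0.308 and 0.529). In 10 members of the list the csf1ra-/- libraries lay above all 8 other libraries of the series, compared with 1.31% of all genes.

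apoa1b, which encodes an apolipoprotein of high-density lipoprotein, fell by 1.88 (SE 0.286, adjusted p = 0.0282). It was at 9.65, 14.9 and 14.1 CPM in csf1ra-/-, 2.58, 3.21 and 2.40 CPM in csf1ra-/-;b+/-, 11 and 9.64 CPM in control and 5.59, 6.47 and 2.21 CPM in csf1ra-/-;b-/- libraries. It is 1 of 4 listed genes of the liver and plasma, and the call was made in 0 of 6 fits without 1 library (adjusted p from 0.0531 to 0.135).

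Several called genes are known for other functions, and some were close to on or off. alox5b.3, of the 5-lipoxygenase family that makes leukotrienes, was at 6.65, 17.3 and 21.6 CPM in csf1ra-/- and at 0.0696, 0.139 and 0.13 CPM in csf1ra-/-;b+/- libraries, 615 reads against 5. It fell by 3.72 (SE 0.33, adjusted p = 0.00213) and was called in all 6 fits without 1 library. Control libraries held 0.329 and 0.231 CPM, so the csf1ra-/- group stood apart from the rest of the series.

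gstm.2, a glutathione S-transferase gene, varied little within groups. It was at 46.6, 45.3 and 48.0 CPM in csf1ra-/- and 20.7, 20.4 and 21.2 CPM in csf1ra-/-;b+/- libraries, and fell by 1.13 (SE 0.121, adjusted p = 0.00415). Control libraries held 16.5 and 19.8 CPM and csf1ra-/-;b-/- libraries 2.41, 2.52 and 3.15 CPM, a further log2 difference of -2.57 between csf1ra-/-;b-/- and csf1ra-/-;b+/- (adjusted p = 2.67e-06). Of its family, gstm.1 had means of 104 ± 4.32 and 110 ± 10.9 CPM (0.08, adjusted p = 0.999), and gstm.3 5.41 ± 1.00 and 2.52 ± 0.569 CPM (-0.86, adjusted p = 0.123). Of the 31 listed glutathione and oxidative stress genes gstm.2 alone was called (0.187% of all genes), and the median was -0.03. In 4 of the 31 the unadjusted p was under 0.05, all lower, compared with 3.72% of all genes.

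Other genes that fell have known functions. The finTRIM gene ftr86 fell by 1.52 (means 3.79 ± 0.972 and 0.656 ± 0.215 CPM, adjusted p = 0.0229), the mitochondrial citrate carrier gene slc25a1b by 1.75 (8.99 ± 2.41 and 1.96 ± 0.673 CPM, adjusted p = 0.026), and the lipid transporter gene abca12 by 1.58 (6.35 ± 2.79 and 1.37 ± 0.448 CPM, adjusted p = 0.0469). In all 3 the csf1ra-/- libraries lay above every other library of the series. Just short of the threshold were zwilch, of the kinetochore (-1.50, adjusted p = 0.0659), cep152, of the centriole (-1.42, adjusted p = 0.0717), and spint2, a protease inhibitor gene (-2.95, adjusted p = 0.0717), all of which fell with the block (0.0143, 0.0382 and 0.00141). With all genotypes blocked zwilch alone of these was called (0.0278, compared with 0.0516 and 0.0733).

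Among the rises, msh4, a mismatch repair homologue of meiosis, was not read in the csf1ra-/- libraries. It was at 0, 0 and 0 CPM there and at 10.8, 10.8 and 5.51 CPM in csf1ra-/-;b+/- libraries, 0 reads against 395 and so at least 118-fold higher, taking 3 reads over the csf1ra-/- group as the floor. Control libraries held 0.197 and 0 CPM, and csf1ra-/-;b-/- libraries 18.7, 5.54 and 9.37 CPM. On the log2(CPM + 1) scale msh4 rose by 3.27 (SE 0.357, adjusted p = 0.00415), in all 6 fits without 1 library.

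paqr3b, which encodes a Golgi membrane protein of the progestin and adipoQ receptor family, rose by 1.85 (SE 0.29, adjusted p = 0.0298), from 0.649, 2.34 and 2.77 CPM to 7.66, 12 and 7.72 CPM. Control libraries held 10.6 and 7.64 CPM, so the csf1ra-/- libraries were the low ones. The same was seen for MFN1, the mitofusin gene of mitochondrial fusion, which rose by 1.59 (means 1.52 ± 0.616 and 6.60 ± 1.87 CPM, adjusted p = 0.0298), and for the centrosomal gene cep85, which rose by 0.91 (6.87 ± 0.53 and 13.9 ± 1.42 CPM, adjusted p = 0.0247). The secreted angiopoietin-like gene angptl7 rose by 1.26 (2.78 ± 0.997 and 7.88 ± 1.02 CPM, adjusted p = 0.0433), and the zinc finger gene znf1124 (ENSDARG00000069796) by 0.94 (18.2 ± 3.00 and 35.5 ± 3.09 CPM, adjusted p = 0.0229). crmp1, an axon guidance gene, rose with the block, from 100 to 104 CPM to 130 to 155 CPM (0.49, adjusted p = 0.0848, with the block 0.0217, and with all genotypes blocked 0.0733).

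Of the 31 called genes 14 have only a clone-derived name, which says nothing of function. On the log2(CPM + 1) scale the largest of these rises was in si:ch211-181d7.3, from 8.92, 6.67 and 2.99 CPM to 74.7, 50.3 and 66.0 CPM (3.25, adjusted p = 0.00495). By reads AL928808.1 rose by more: it went from 1 read to 248 reads over the group, a ratio of 223.2 with a counting interval of 39.7 to 8850 (adjusted p = 0.00213). On the log2(CPM + 1) scale the largest of the falls was in si:dkey-22i16.9, from 6.73, 3.08 and 9.17 CPM to 0.209, 0.349 and 0.259 CPM (-2.43, adjusted p = 0.0103), and here the csf1ra-/-;b+/- libraries lay below all other libraries of the series, csf1ra-/-;b-/- included.

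The 4 genotypes together show which group stood apart for each called gene. As the genes were called on these libraries, the counts are a description. In 20 of the 31, the 3 csf1ra-/- libraries lay outside the range of the other 8 libraries (2.35% of all genes), 10 above it and 10 below it. In 13 of the 31, the 6 libraries with a csf1rb mutation lay outside the range of the other 5 (2.03% of all genes), among them 9 lower genes such as csf1rb, gh1, mhc2dab and apoa1b. In 3 of the 31 the csf1ra-/-;b+/- libraries lay outside the range of the other 8 (1.01% of all genes). A gene can count in more than 1 of these groups, as alox5b.3 does.

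**Figure D4:**
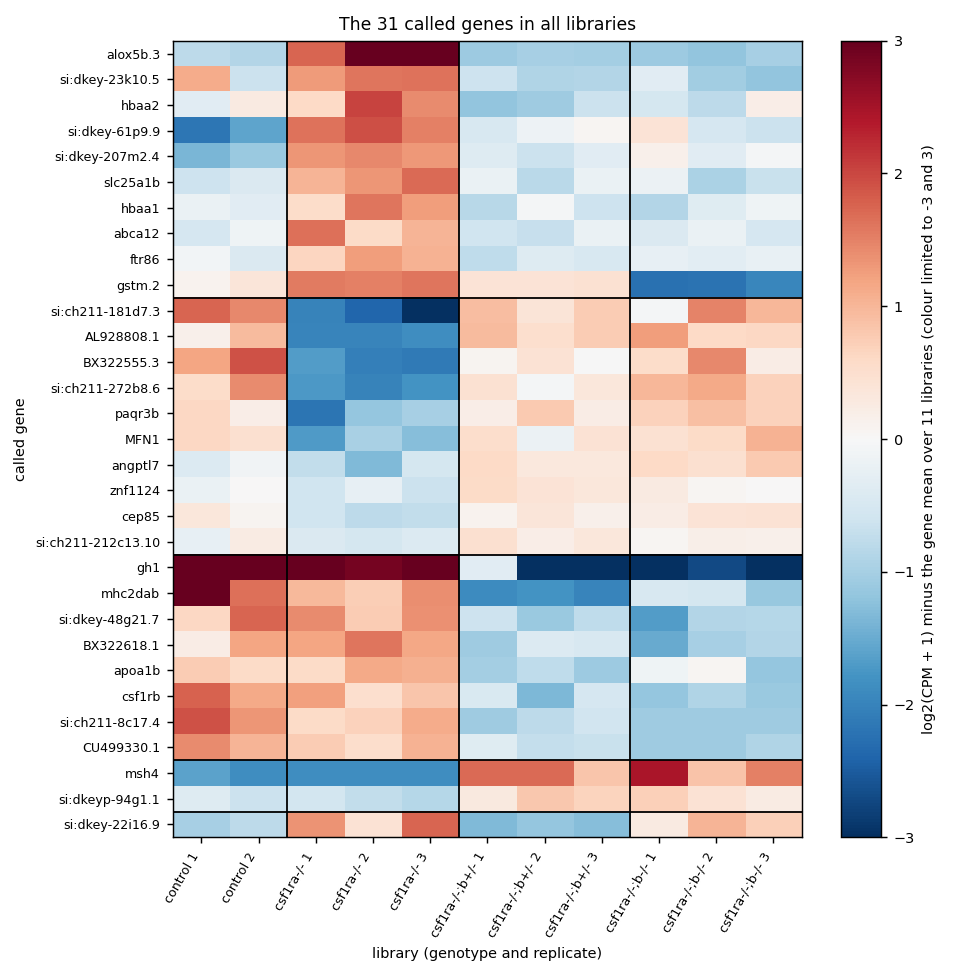
The 31 called genes (rows) in 11 libraries (columns, by genotype and replicate), coloured by log2(CPM + 1) minus the gene's mean over the libraries. Rows are grouped by the libraries that stand apart: in the upper 20 rows the csf1ra-/- columns differ from all others, in the next 10 both csf1rb-mutant groups differ from control and csf1ra-/-, and in the last row the csf1ra-/-;b+/- columns are lowest.

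Lists of neural cells had medians close to 0. None of 31 genes of neurons and synapses (median 0.02), 21 of oligodendrocytes and myelin (0.09), 18 of excitatory neurons (-0.01) or 16 of inhibitory neurons (-0.03) passed either fit. Over all genes 0.187% passed without the block and 1.25% with it, so 0 calls in lists of this size say little. Of 26 genes of endothelium and the blood-brain barrier (median -0.09) 0 passed without the block and 1 fell with it (0.889% of all genes). This was the lipid transporter gene mfsd2ab (means 113 and 81.0 CPM, adjusted p with the block 0.0199). The radial glia and astroglia list had a median of -0.08 over 27 genes and 0 called without the block. With it 3 fell (0.889% of all genes): the glutamine synthetase gene glulb (means 293 ± 38.0 and 206 ± 16.4 CPM, adjusted p with the block 0.016), the calcium-binding protein gene s100b (567 ± 77.1 and 433 ± 53.7 CPM, 0.0322) and the gap junction gene cx43 (821 ± 68.6 and 644 ± 69.6 CPM, 0.033). None of these 3, nor mfsd2ab, was called with all genotypes blocked (adjusted p = 0.13, 0.416, 0.499 and 0.116). The list of retina and pineal genes had a median of -0.44, but its level ran from -1.37 to 1.23 between single libraries relative to the csf1ra-/- mean, with csf1ra-/- replicate 1 and csf1ra-/-;b+/- replicate 3 lowest and csf1ra-/- replicate 2 highest.

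**Figure D5:**
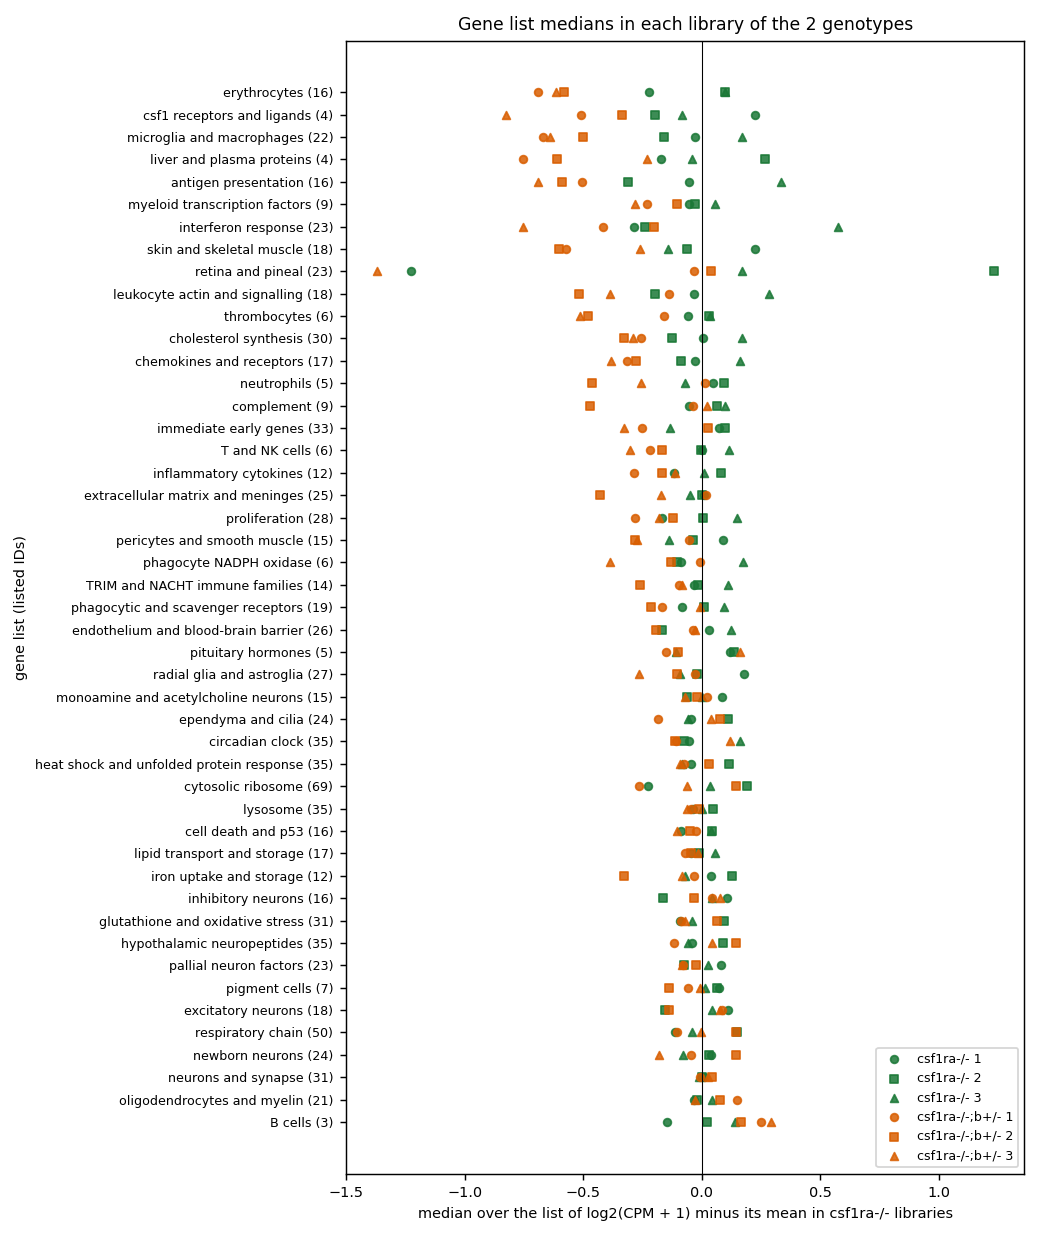
Median over each gene list of log2(CPM + 1) minus the csf1ra-/- mean (x axis) in the 3 csf1ra-/- (green) and 3 csf1ra-/-;b+/- (orange) libraries, with lists on the y axis and the number of listed genes in brackets. The groups do not overlap for erythrocytes, microglia and macrophages, antigen presentation and cholesterol synthesis. The same holds for further lists, such as T and NK cells, thrombocytes, and skin and skeletal muscle, and for B cells in the higher direction. The list of neurons and synapses runs from -0.012 to 0.044 over the 6 libraries, that of oligodendrocytes and myelin from -0.033 to 0.15, and that of excitatory neurons from -0.156 to 0.112.

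The shared numbers could be seen in nr1d2a and fkbp5, which were chosen after their values were seen, so they illustrate the pairing and do not test it. Of the 35 listed circadian clock genes 21 were below 0 (60%, compared with 51.8% of all genes), with a median of -0.06. None of the 35 passed without the block, and 2 fell with it (0.889% of all genes). nr1d2a, a repressor in the circadian clock, was at 72.3, 114 and 261 CPM in csf1ra-/- libraries and 41.1, 82.2 and 161 CPM in csf1ra-/-;b+/- libraries, and fkbp5, a gene induced by glucocorticoids, at 104, 215 and 455 against 41.1, 108 and 237 CPM. In both genes the third library of each of these 2 groups was highest and the first lowest. In csf1ra-/-;b-/- libraries the order held for nr1d2a (697, 971 and 2410 reads) but not for fkbp5 (1990, 1021 and 4817 reads). Without the block neither passed (-0.65, adjusted p = 0.999, and -1.08, adjusted p = 0.994), while within pairs both fell (adjusted p with the block 0.0102 and 0.0015). nfil3-6, a clock-linked transcription factor gene, likewise fell with the block (-0.49, adjusted p 0.011). Of 33 listed immediate early genes 27 were below 0 (median -0.22), and dusp1, klf2a, dusp2 and egr3 fell with the block (0.889% of all genes). With all genotypes blocked 0 of the 33 were called (these 4 from 0.116 for dusp1 to 0.425 for dusp2), nor were nr1d2a (0.0873) and fkbp5 (0.264), while nfil3-6 was (0.0387). dusp1, a phosphatase gene induced by stimulation, was at 28.5, 42.6 and 52.0 against 16.7, 21.3 and 19.7 CPM (-1.02, adjusted p = 0.627, and with the block 0.0111), and klf2a had means of 49.5 ± 9.95 and 24.4 ± 3.70 CPM (with the block 0.0249). junbb, of the same list, went the other way without passing, with means of 110 ± 71.1 and 232 ± 73.4 CPM and overlapping groups (1.21, adjusted p = 0.492, and with the block 0.0968).

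The groups differ by a csf1rb allele, so the genes beside csf1rb were read as well. In the order RefSeq gives for the assembly GRCz12tu, 13253 of the 16536 genes could be placed. Of the 31 called genes 13 could not, mhc2dab among them, so their distance from csf1rb is not known here. Among the 10 listed genes placed on each side of csf1rb none was called, and their log2 differences ran from -0.40 to 0.20. Among the 10 on each side of csf1ra, the gene 3 places away is cd74a, whose difference of -1.17 is given above, and the others lay between -0.52 and 0.27. A small cluster of calls lay elsewhere: apoa1b, ftr86 and alox5b.3, all lower, share chromosome 15, with 5 listed genes between the first pair and 4 between the second pair. si:dkey-23k10.5, also lower, lies on that chromosome too, where 4 of 474 placed genes were called (0.844%), compared with 18 of all 13253 placed genes. This chromosome is named because of its calls, so its share is a description. The alpha globin genes hbaa1 and hbaa2 are separated by 1 listed gene, hbba2, which was called with the block.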

How the data were processed

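The deposited values are a signal table of CPM per gene that the authors scaled by a factor per library. The submitters' processing notes name HISAT2, edgeR and the build GRCz10. No version, counter or strand setting is named in the labels or headers used here. Libraries were read as single ends of 50 nucleotides, per the labels' protocols. In each library 100% of values were whole multiples of 1 read (within 0.001 reads), so reads could be recovered, 12799766 to 15254244 per library. Counting intervals (95%) and floors cover counting error only, because PCR copies cannot be told from molecules without identifiers. Fold changes (log2) and p-values of the authors' deposited table served only to compare calls.

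Differences are on log2(CPM + 1), which understates those of low genes. They were tested with limma 3.58.1 (R 4.3.3, moderated test with a mean-variance trend) in 1 fit of 4 genotypes and 11 libraries. Adjusted p-values are by Benjamini-Hochberg over 16536 genes, called under 0.05. Values with the block come from limma on the 6 libraries with their number as a block. Alternatives were pseudocounts of 0.5 and 2, filters on mean CPM, other blocks, edgeR 4.0.16 and DESeq2 1.42.0 on recovered reads, CPM without the scaling factor and leaving out libraries. Code was tested on simulated data.

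Same-numbered libraries of the 2 groups deviated together from their group means (correlations across 12019 genes of 0.506, 0.717 and 0.435, compared with -0.577 to 0.135 for other pairs). The numbers were therefore taken as pairs. This comes from the data, and the labels do not say what a number stands for. Deviations from a group mean cancel out within a group, so values for the other pairs are not independent of those for same-numbered pairs.

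The comparison and the 47 gene lists (937 of 1278 symbols matched) were chosen with earlier results of these data known. Named genes are the receptors and ligands, the 12 largest called rises and falls without overlap whose mean log2(CPM + 1) reached 1, the called members and up to 3 members of each list with the smallest p, and called genes among the 10 beside csf1rb. Chosen after their values were seen were zwilch, cep152, spint2, crmp1, irge4, hbba2, alas2, hmgcs1, fcer1gl, slco2b1, cd74b, mhc1uba, lgals3bpb, fdps, apoc1, dusp1, c1qb, b2m, dusp2, fkbp5, nfil3-6, hexb, nr1d2a, mpeg1.1, gstm.1, prl2, mfsd2ab and abca12.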

Additional observations from a re-analysis of the deposited data

How the results depend on the processing

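The 31 called genes kept their direction under each alternative run, except that a minimum mean of 5 CPM left 13 of them out and kept the direction of the other 18. The number of calls moved. The fit of 4 genotypes called 31 genes (12 higher, 19 lower); a minimum mean of 5 CPM left 11 (3 and 8), DESeq2 called 126 (51 and 75), edgeR 24 (12 and 12, 22 of them among the 31) and edgeR with the replicate block 41 (19 higher). The limma fit of the 6 libraries with the replicate block called 206 (59 and 147), and without pair 1, 2 or 3 it called 10 (2 and 8), 452 (125 and 327) and 234 (74 and 160). Leaving out the libraries numbered 2 from every group gave 8 (4 and 4), and leaving out 1 library 9 to 16 (4 to 6 higher, 5 to 11 lower). These settings without numbered libraries or pairs were chosen after seeing the data. A fit of the 6 libraries without a block called 29 genes, 16 of them among the 31.

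csf1rb was lower in each setting, but its call was lost with a minimum mean of 5 CPM (-1.62, adjusted p = 0.0705), in the fit of the 6 libraries alone (-1.62, 0.125), with edgeR (-1.88, 0.0571), without the scaling factor (-1.59, 0.0594), without the libraries numbered 2 (-1.507, 0.115), with the block but without pair 1 (-1.60, 0.114), and without any 1 library (-1.34 to -1.79). Among genes that passed no fit, the sign turned for pomca (-0.12, block without pair 3), mpeg1.1 (0.036, block without pair 3), csf1a (0.087, block without pair 1, and -0.41 to 0.040 without 1 library) and prl2 (0.016 without the libraries numbered 2 or with the block without pair 2, 0.085 with the block without pair 1, and -0.25 to 0.026 without 1 library). The causes were not tested. At 1 CPM a library held 12.3 to 15.7 reads, which limits what can be seen in the lowest genes.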
